A study of Mus musculus with 11 samples.

Results

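The SLAM family (signaling lymphocytic activation molecules) is a set of immunoglobulin-type surface receptors of blood cells, and 9 of its genes were followed here: Slamf1, Cd48, Cd244a, Ly9, Cd84, Slamf6, Slamf7, Slamf8 and Slamf9. They were chosen by name, and all 9 were among the 22180 genes with a probe set assigned to a single symbol. Slamf6 had 2 such probe sets and each of the others had 1. RNA came from FACS-sorted mouse hematopoietic stem cells (HSCs), the cells from which all blood lineages descend. The mice had received ATRA and then polyIC (RApIC, 3 arrays), polyIC alone (pIC, 2 arrays), ATRA alone (3 arrays) or PBS (3 arrays). ATRA is all-trans retinoic acid, the active form of vitamin A, and polyIC is a synthetic RNA duplex that immune sensors read as viral and that triggers interferon. The sources used here do not give strain, age, doses, injection times or the sorting gate. Nor is it stated whether replicates came from separate mice, so p-values reflect nothing but the scatter of these arrays, which may be technical, and their number limits the precision of every value.

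Most SLAM receptors bind a copy of themselves on a neighbouring cell, whereas CD48 is the ligand of CD244 (2B4). Their cytoplasmic tails recruit the small adaptors SAP and EAT-2, which couple them to kinases or keep phosphatases away. CD48 has no such tail and is held in the membrane by a lipid anchor. In mouse marrow the proteins CD150 (Slamf1) and CD48 are widely used to sort stem cells, as CD150-positive and CD48-negative cells, while most downstream progenitors carry CD48. The arrays measured RNA, not the surface proteins of such a gate.

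Values are deposited log2 intensities, and a difference is the first group's mean minus that of the group set against it, ± its standard error (SE), with all 11 arrays in a single limma fit. Calls were made where the p-value, adjusted by Benjamini-Hochberg over the 22180 genes, was under 0.05. Array medians ran from 6.19 to 6.28. The mean of 11 HSC markers lay at 9.03 to 9.57 on RApIC, 9.06 to 9.09 on pIC, 9.85 to 9.90 on ATRA and 9.82 to 9.88 on PBS arrays, above the median of every array. RApIC replicate 2 stood apart from replicates 1 and 3: its first principal component score was -4.53, against 35.8 and 23.3, while the pIC arrays had 35.0 and 37.8 and the ATRA and PBS arrays -24.5 to -15.1. Results that its absence changes are therefore also given without it. In bulk RNA, fewer cells of a type and less RNA per cell cannot be told apart.

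**Figure D1:**
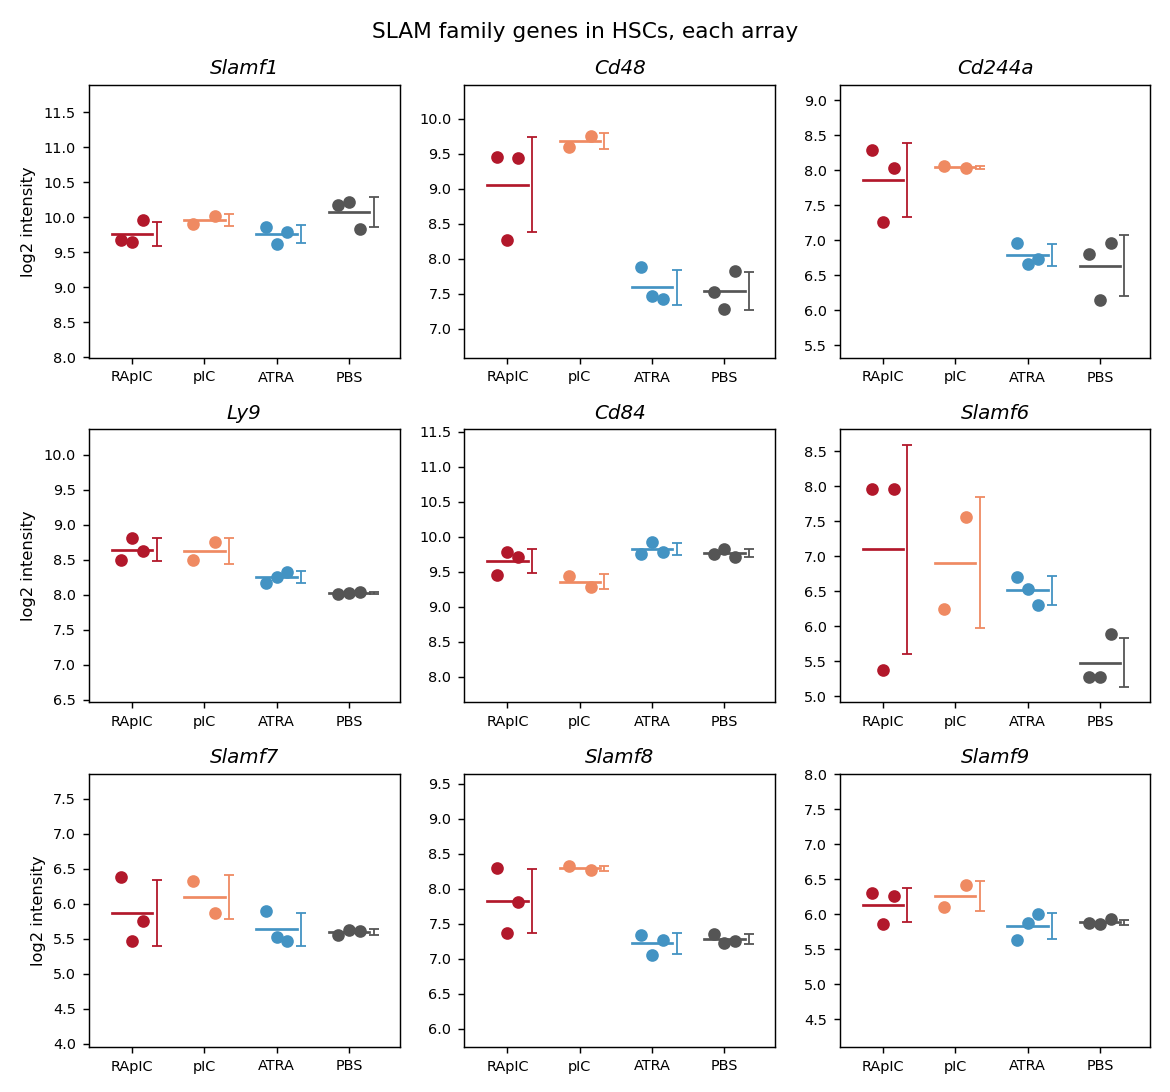
Log2 intensity (y axis, the same span in each panel) of the 9 SLAM family genes on the RApIC, pIC, ATRA and PBS arrays (x axis). Points are arrays, bars are group means and whiskers their SD; Cd48, Cd244a and Slamf8 are high on the pIC arrays and on RApIC replicates 1 and 3, and Slamf6 spreads widely (RApIC 5.37 to 7.97).

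The comparison of pIC with PBS asked how an interferon-inducing signal changed the family. Cd48 and its receptor Cd244a rose the most among the called members, Slamf8 and Ly9 rose less, and Cd84 fell. Slamf1, the CD150 gene, did not pass. Thus 5 of 9 members were called, 4 higher and 1 lower, against 14.7% of all genes called in this comparison (8.94% higher and 5.75% lower). The median difference of the 9 members was 0.61, and that of all genes 0.001.

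Cd48 had 9.60 and 9.76 on the pIC arrays, against 7.53, 7.28 and 7.82 on the PBS arrays. The lowest pIC array thus lay well above the highest PBS array, and the rise was 2.14 ± 0.32 (4.4-fold, adjusted p 0.00309). Cd244a, whose product is found on NK cells and several myeloid cells, had 8.06 and 8.03 with pIC and 6.80, 6.15 and 6.97 with PBS. The groups did not overlap, and it rose by 1.40 ± 0.28 (2.64-fold, adjusted p 0.0104). The ligand and its receptor therefore moved the same way.

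Ly9 encodes CD229, a self-binding receptor of T and B cells. It had 8.50 and 8.76 with pIC, against 8.01, 8.03 and 8.04 with PBS, and the groups did not overlap. This was a small rise of 0.61 ± 0.11 (1.52-fold, adjusted p 0.00659), set against a PBS spread of 0.02 (SD, n = 3). Slamf8, a receptor of macrophages that lacks the signaling motifs of its relatives, had 8.32 and 8.27 with pIC and 7.36, 7.22 and 7.25 with PBS. The groups did not overlap, and it rose by 1.02 ± 0.21 (2.02-fold, adjusted p 0.0103).

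Cd84, a self-binding receptor that is also carried by platelets and mast cells, was the called member that went down. Its pIC arrays had 9.44 and 9.28, and its PBS arrays 9.76, 9.83 and 9.71. It fell by 0.41 ± 0.11 on the log2 scale (to 0.755 times the PBS level, adjusted p 0.0301), and the groups did not overlap.

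The other 4 members did not pass. Slamf1 had 9.90 and 10.02 with pIC, within the PBS values of 10.17, 10.22 and 9.83. Its difference was -0.11 ± 0.14 (adjusted p 0.691), with a 95% interval of -0.42 to 0.20, so a change as large as that of Cd84 is just inside the interval on the low side. Slamf6, a receptor of T and NK cells, had 6.25 and 7.57 with pIC and 5.28, 5.28 and 5.89 with PBS, a difference of 1.43 ± 0.67 (adjusted p 0.197) in which the 2 pIC arrays themselves lay more than 1 log2 unit apart. The difference was 0.50 ± 0.24 for Slamf7, a receptor of NK and plasma cells (adjusted p 0.203), and 0.38 ± 0.15 for Slamf9, a relative of Slamf8 found on macrophages and dendritic cells (adjusted p 0.13). Both belonged to the dimmest 40% of genes, and their pIC and PBS arrays did not overlap. In all, 8 of 9 members had separated pIC and PBS arrays, Slamf1 being the exception, against 43.0% of all genes. An unadjusted p under 0.05 was reached by 6 of 9 members, the 5 called and Slamf9, against 27.5% of all genes.

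The calls rest on 2 pIC arrays. With pIC replicate 1 left out, 2 members passed (Cd48 and Ly9), and with pIC replicate 2 left out 1 passed (Cd48), the remaining pIC array being taken to vary like the other groups; Cd84 also missed the threshold without PBS replicate 1 or 2 (adjusted p 0.0668 and 0.0833), and Slamf6 passed without RApIC replicate 2 (adjusted p 0.013).

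**Figure D2:**
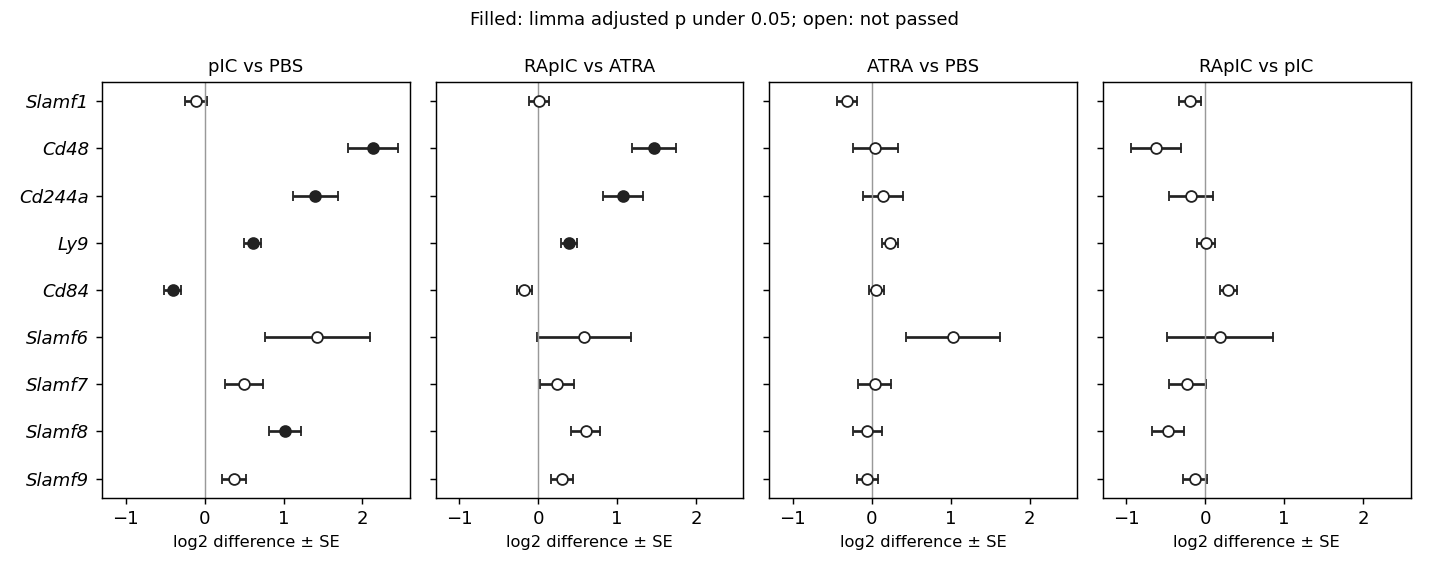
Log2 difference ± SE (x axis) of each SLAM family gene (y axis) in 4 comparisons; filled points passed the limma adjusted p of 0.05 and open points did not. Cd48, Cd244a and Ly9 are filled in both comparisons that add pIC, Slamf8 and Cd84 in pIC versus PBS, and no point is filled in the 2 comparisons that add ATRA.

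Promoters of the members are shown because 4 of them rose together after pIC, so that a reader can see which carry an interferon element near the start site. RefSeq promoters (build GRCm38.p6, 250 bases before to 50 after the start) were at hand for 8 of the 9 members. The missing promoter was that of Ly9, a member that rose, so Ly9 was not searched for any motif. Cd48 and Slamf8 stand for the members that rose and Cd84 is the member that fell; capitals mark matches to the interferon-stimulated response core (GAAA, any 2 bases, GAAA), the gamma-activated site TTCNNNGAA or the retinoid receptor half-site AGGTCA, on either strand.
Slamf8, chr1:172590519-172590818, minus strand: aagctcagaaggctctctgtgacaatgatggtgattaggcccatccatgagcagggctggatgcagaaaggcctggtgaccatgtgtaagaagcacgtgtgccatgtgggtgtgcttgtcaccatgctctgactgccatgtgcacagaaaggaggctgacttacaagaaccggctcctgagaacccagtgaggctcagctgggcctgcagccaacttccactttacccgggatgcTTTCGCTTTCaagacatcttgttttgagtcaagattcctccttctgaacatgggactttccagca
Cd48, chr1:171681742-171682041, plus strand: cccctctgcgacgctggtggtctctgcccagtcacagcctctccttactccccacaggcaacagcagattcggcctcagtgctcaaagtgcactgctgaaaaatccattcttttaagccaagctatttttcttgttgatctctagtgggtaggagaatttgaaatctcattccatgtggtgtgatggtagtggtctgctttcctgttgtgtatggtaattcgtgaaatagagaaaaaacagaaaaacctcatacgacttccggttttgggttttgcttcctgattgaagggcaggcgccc
Cd84, chr1:171839447-171839746, plus strand: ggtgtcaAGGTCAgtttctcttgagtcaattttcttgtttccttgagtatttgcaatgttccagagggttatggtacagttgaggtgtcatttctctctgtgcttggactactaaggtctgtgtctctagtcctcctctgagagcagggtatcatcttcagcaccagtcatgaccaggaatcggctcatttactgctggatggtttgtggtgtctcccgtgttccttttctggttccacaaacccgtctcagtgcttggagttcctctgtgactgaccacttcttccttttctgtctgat

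The response core was found in 1 of the 8 promoters, that of Slamf8, where it begins 15 bases before the start and reads TTTCGCTTTC on the gene's strand (the core lies on the opposite strand). Of 32851 promoters of this length, 3.44% held the core. The gamma-activated site was in 0 of 8 (8.30% of all promoters), and the retinoid half-site was in that of Cd84 (1 of 8, against 16.3%). The PU.1 core GAGGAA, searched as well but left in lower case, was in 4 of 8 (Cd244a, Cd84, Slamf8 and Slamf9, against 28.3%), and no match overlapped one of another motif. The Cd48 promoter, whose gene rose the most among called members, held none of the 4 sets of letters in this window.

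The comparison of RApIC with ATRA asked for the pIC response in mice that had first received ATRA. It shares no array with pIC versus PBS. Cd48, Cd244a and Ly9 rose again, and 3 of 9 members were called, all higher, against 7.21% of all genes called in this comparison (3.50% higher and 3.71% lower). The median was 0.39 over the members and -0.003 over all genes.

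Cd48 had 9.46, 8.27 and 9.44 on RApIC replicates 1, 2 and 3, against 7.88, 7.46 and 7.43 on the ATRA arrays. It rose by 1.47 ± 0.28 (2.76-fold, adjusted p 0.0143), and replicate 2 lay between the other RApIC arrays and the ATRA arrays. Cd244a showed the same order, with 8.29, 7.27 and 8.03 in RApIC and 6.97, 6.66 and 6.74 in ATRA, and rose by 1.07 ± 0.25 (2.11-fold, adjusted p 0.0307). Ly9 differed from both in that RApIC replicate 2 was its highest array: it had 8.49, 8.81 and 8.63 in RApIC and 8.17, 8.26 and 8.33 in ATRA, a rise of 0.39 ± 0.10 (1.31-fold, adjusted p 0.0392). None of the 3 genes had overlapping groups.

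Slamf8 gave 8.29, 7.37 and 7.81 in RApIC and 7.34, 7.05 and 7.27 in ATRA. The groups were separated, but the difference of 0.61 ± 0.18 did not pass (adjusted p 0.0757). Cd84 had 9.46, 9.78 and 9.71 in RApIC and 9.76, 9.92 and 9.78 in ATRA, a difference of -0.17 ± 0.10 (adjusted p 0.342), and the groups overlapped. Slamf1, with 9.68, 9.65 and 9.96 in RApIC and 9.86, 9.61 and 9.79 in ATRA, differed by 0.01 ± 0.12 (adjusted p 0.983; 95% interval -0.27 to 0.28). The values were 0.58 ± 0.60 for Slamf6, 0.24 ± 0.21 for Slamf7 and 0.30 ± 0.13 for Slamf9 (adjusted p 0.659, 0.602 and 0.224). Of the 9 members, 4 had separated RApIC and ATRA arrays, against 24.1% of all genes.

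These calls depended on the arrays used, and so did the calls over all genes. Of 22180 genes, 3214 were called without RApIC replicate 2, against 1599 in the main fit. The number was 476 to 755 without any other RApIC or ATRA array, and 305 in a fit of the RApIC and ATRA arrays alone. Without RApIC replicate 2, 5 members passed: Cd48 at 1.86, Cd244a at 1.37, Slamf6 at 1.45, Slamf8 at 0.83 and Slamf9 at 0.44. Their adjusted p ran from 0.000103 to 0.0366, while Ly9, at 0.31, did not pass (0.062). Without RApIC replicate 1 or ATRA replicate 1, 1 member passed. Without RApIC replicate 3, ATRA replicate 2 or ATRA replicate 3, 0 passed. In a fit of the RApIC and ATRA arrays alone 0 passed (adjusted p 0.0784 for Cd48, 0.0849 for Cd244a and 0.103 for Ly9). With any 1 PBS array left out, although PBS is outside this comparison, 2 passed. Of the fits that left out 1 array, 8 lost the Ly9 call, 5 that of Cd244a and 4 that of Cd48.

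Set side by side, the pIC differences were 1.47 after ATRA and 2.14 without it for Cd48, 1.07 and 1.40 for Cd244a, 0.39 and 0.61 for Ly9, 0.61 and 1.02 for Slamf8, and -0.17 and -0.41 for Cd84. The sign was the same for 8 of 9 members, all but Slamf1, and for 68.8% of all genes. The 3 members called in both comparisons, each time in the same direction, were 100% of those called after ATRA and 60.0% of those called without it. Over all genes 1176 were called in both in the same direction, which is 73.5% and 36.1% of each list. The interaction term tests whether the response after ATRA differed from the response without it. It passed for 0 of 9 members (adjusted p 0.831 to 0.967) and for 0 of 22180 genes by limma (0.00% called), with 0 members and 6.27% of genes at an unadjusted p under 0.05. The Cd48 interaction was -0.67, with an interval of -1.61 to 0.26. Without RApIC replicate 2 it was -0.27 (adjusted p 0.915), and the difference after ATRA was then 1.86 against 2.14 without ATRA.

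The comparison of RApIC with pIC asked what ATRA, given before pIC, added to the response. It shares the RApIC arrays with RApIC versus ATRA and the pIC arrays with pIC versus PBS. No member was called, nor was any other gene (0.00% called), by limma. At an unadjusted p under 0.05 there were 2 members, Cd84 and Slamf8, against 10.1% of all genes. Cd84 had 9.46, 9.78 and 9.71 in RApIC and 9.44 and 9.28 in pIC, a difference of 0.29 ± 0.11 (adjusted p 0.409), the RApIC arrays lying just above the pIC arrays. Slamf8 was at -0.47 ± 0.21 (adjusted p 0.48) and Cd48 at -0.62 ± 0.32 (adjusted p 0.533). Without RApIC replicate 2, Cd48 was at -0.23, Slamf8 at -0.24 and Cd84 at 0.22. Arrays of Cd48 and Cd84 did not overlap, 2 of 9 members against 27.2% of all genes. The remaining members lay between -0.23 for Slamf7 and 0.19 for Slamf6 (adjusted p 0.662 to 0.987), and Slamf6 was at 1.05 without RApIC replicate 2 (adjusted p 0.503).

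The comparison of ATRA with PBS asked what retinoic acid did to the family without pIC. It shares the PBS arrays with pIC versus PBS and the ATRA arrays with RApIC versus ATRA. No member was called, and the call rate over all genes was 0.00451%. Slamf1 had 9.86, 9.61 and 9.79 on the ATRA arrays and 10.17, 10.22 and 9.83 on the PBS arrays, a difference of -0.32 ± 0.12 (unadjusted p 0.0284, adjusted p 0.692). PBS replicate 3 fell within the ATRA values. Ly9 had 8.17, 8.26 and 8.33 against 8.01, 8.03 and 8.04, so that every ATRA array lay above every PBS array, and differed by 0.23 ± 0.10 (unadjusted p 0.0416, adjusted p 0.721). Slamf6 was likewise separated, with 6.71, 6.54 and 6.30 on ATRA and 5.28, 5.28 and 5.89 on PBS arrays, a difference of 1.03 ± 0.60 (adjusted p 0.806). Separated arrays were found for these 2 of 9 members and for 12.7% of all genes, and an unadjusted p under 0.05 for 2 members (Slamf1 and Ly9) and 6.80% of genes. Cd48 was at 0.05 ± 0.28, Cd244a at 0.15 ± 0.25 and the other 4 members between -0.06 and 0.06 (adjusted p 0.956 to 0.993), and the 95% interval for Cd48, -0.58 to 0.67, excludes a rise of the size seen with pIC.

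Over the 4 groups the order of the levels differed between members. Cd48 was highest in pIC (9.68 ± 0.12, SD, n = 2), followed by RApIC (9.06 ± 0.69, n = 3), ATRA (7.59 ± 0.25, n = 3) and PBS (7.54 ± 0.27, n = 3). Its upper and lower pairs were apart by more than their spread, while within each pair the tests did not pass. Cd244a and Slamf8 had pIC first and RApIC second as well, at 8.04 ± 0.02 and 7.86 ± 0.53 for Cd244a and 8.29 ± 0.03 and 7.83 ± 0.46 for Slamf8. Ly9 formed steps, with 8.64 ± 0.16 in RApIC, 8.63 ± 0.18 in pIC, 8.25 ± 0.08 in ATRA and 8.03 ± 0.02 in PBS. Slamf1 was the member with the smallest range over the 11 arrays (0.61), and Slamf6 the one with the largest (2.69).

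Markers of other blood cells were measured in the same arrays, since several members are also carried by lymphocytes and macrophages. A list of 19 genes typical of T and NK cells averaged 7.24, 5.75 and 7.06 on RApIC replicates 1, 2 and 3, and the pIC arrays gave 6.41 and 6.80. The average was 5.98, 6.06 and 5.89 on the ATRA arrays and 5.71, 5.66 and 5.80 on the PBS arrays. Summed as linear intensities the 19 genes gave 1860 to 5620 in RApIC, 2968 to 4240 in pIC, 1542 to 1858 in ATRA and 1435 to 1746 in PBS, and no marker is at 0 since normalised log2 values have no zero. In pIC versus PBS 2 of 19 were called higher, the granule genes Nkg7 and Gzmb, against 8.94% of all genes. The count was 9 without RApIC replicate 2 or in a fit of those 2 groups alone, 8 under array weights, 1 without pIC replicate 1, PBS replicate 1 or PBS replicate 3, and 0 without pIC replicate 2. In RApIC versus ATRA 1 of 19 was called higher (Nkg7), against 3.50% of all genes, and without RApIC replicate 2 there were 13 higher and 1 lower (14 and 1 under array weights). The calls over all 22180 genes, in either direction, moved with these settings as well. In pIC versus PBS they were 4052 without RApIC replicate 2, 3038 in the fit of those 2 groups and 4204 under array weights. In RApIC versus ATRA they were 3214 without RApIC replicate 2 and 4588 under array weights. The same totals apply to the marker counts below under those settings.

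Slamf6 ranked the arrays in part as these markers did: its 3 highest arrays, RApIC replicates 1 and 3 and pIC replicate 2, were also the 3 highest in the marker mean, and RApIC replicate 2, at 5.37, was low in both. On pIC replicate 1 the 2 differed. Its marker mean of 6.41 lay above all ATRA arrays (5.89 to 6.06), but its Slamf6 value of 6.25 lay below them (6.30 to 6.71). Cd3g, a chain of the T-cell receptor complex, had 9.23, 5.46 and 9.63 in RApIC, 7.48 and 8.54 in pIC, 6.90, 7.79 and 6.23 in ATRA and at most 6.27 in PBS. The second Slamf6 probe set read between 5.12 and 5.65 on all 11 arrays, below the median of every array (6.19 to 6.28). It gave 0.16 for pIC versus PBS (limma adjusted p 0.555) and so did not show the difference of the brighter probe set. Whether it detects the transcript at this level was not tested. Cd48 and Cd244a were also high on the arrays with high marker means. Cd48 in RApIC replicate 2 was at 8.27, above all 6 ATRA and PBS arrays (at most 7.88), while the marker mean there, 5.75, was within the PBS values. The markers differed on that array: Nkg7 had 9.78, above all 6 ATRA and PBS arrays (at most 9.46), while Gzmb had 4.78 and Cd3g 5.46. Ly9 was at its highest on RApIC replicate 2. The part of T- and NK-cell RNA in the results for Cd48, Cd244a, Ly9 and Slamf6 was not tested.

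**Figure D3:**
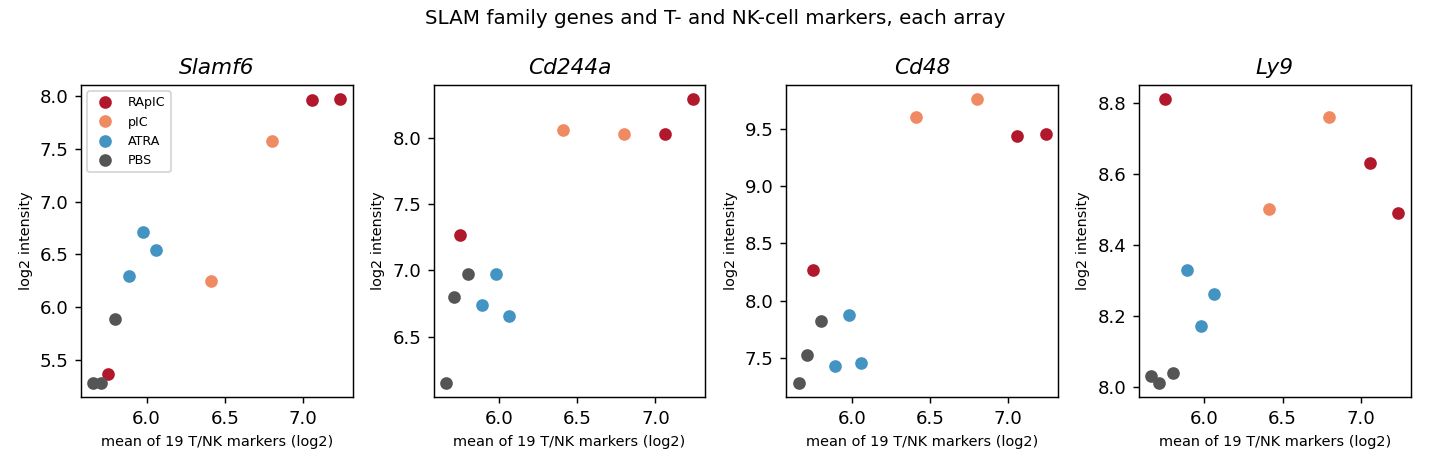
Log2 intensity of Slamf6, Cd244a, Cd48 and Ly9 (y axes) against the mean log2 intensity of 19 T- and NK-cell markers (x axes), 1 point per array, coloured by group. RApIC replicate 2, at a marker mean of 5.75, has 5.37 for Slamf6 and 8.81 for Ly9.

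The mean of 13 macrophage, monocyte and dendritic-cell markers was 6.49 to 6.69 in RApIC, 6.65 to 6.66 in pIC, 6.39 to 6.42 in ATRA and 6.23 to 6.43 in PBS. Differences in this list went both ways. In pIC versus PBS 5 of 13 were positive (median -0.06), and in RApIC versus ATRA 7 were (median 0.02). Lyz2, at -0.72 ± 0.22 in pIC versus PBS, had separated arrays but did not pass (adjusted p 0.0528). There 1 marker was called lower under array weights, under cyclic loess scaling and with the dimmest 40% of genes left out. The count was also 1 under a trend and robust prior, in a fit of the pIC and PBS arrays alone and without RApIC replicate 1 or 2. Of the 13, 2 were called higher in pIC versus PBS, Mpeg1 (4.34 ± 0.67) and the Fc receptor gene Fcgr1 (1.45 ± 0.25). The same 2 were called higher in RApIC versus ATRA, against 8.94% and 3.50% of all genes called higher. In RApIC versus ATRA the count was 0 without any 1 of the ATRA arrays, without RApIC replicate 1 or 3 and in a fit of those 2 groups alone, 1 without PBS replicate 3 or either pIC array, and 2 higher and 1 lower without RApIC replicate 2. For 9 B-cell markers the mean was 5.85 to 6.11 in RApIC, 5.92 to 6.18 in pIC, 5.89 to 6.16 in ATRA and 5.83 to 6.07 in PBS, and for 5 plasma-cell markers it was 5.56 to 5.71, 5.60 to 5.73, 5.60 to 5.74 and 5.60 to 5.65 in the same groups. None of the B- or plasma-cell markers was called in any comparison. Of the HSC markers, 8 of 11 fell and 0 rose in pIC versus PBS, against 5.75% and 8.94% of all genes, with Fgd5 at -1.66 ± 0.18 and Procr, an HSC surface receptor, at -0.77 ± 0.10 (adjusted p 0.000922 and 0.00179). The count was 4 without pIC replicate 1 and 3 without pIC replicate 2. In RApIC versus ATRA 6 of 11 fell, against 3.71% of all genes, 9 without RApIC replicate 2 or under array weights, 3 without RApIC replicate 1 or 3, 4 without ATRA replicate 3, and 2 without ATRA replicate 1 or 2 or in a fit of those 2 groups alone. Itga2b, the CD41 integrin gene of stem cells and megakaryocytes, was read on its own and rose by 0.84 ± 0.17 in pIC versus PBS (adjusted p 0.00959; not passed without pIC replicate 1 or 2) and by 1.21 ± 0.15 in RApIC versus ATRA (adjusted p 0.00238). The mean of 9 progenitor markers was 7.53 to 7.74 in RApIC, 7.20 to 7.32 in pIC, 7.52 to 8.59 in ATRA and 7.24 to 7.41 in PBS, ATRA replicate 1 being the highest array. There Elane had 10.08, Mpo 9.47 and Ctsg 8.53, against 6.48, 6.46 and 5.97 on ATRA replicate 2 and 6.48, 6.49 and 6.14 on ATRA replicate 3. Other markers of the list stood out less: Cd34 had 10.45, 10.41 and 10.53 on the ATRA arrays, and Cd27 9.56, 9.41 and 9.45. None of these 9 was called in pIC versus PBS in the main fit. There 1 was called lower under array weights, with the dimmest 40% of genes left out and under a trend and robust prior. The count was also 1 lower in a fit of the pIC and PBS arrays alone and without RApIC replicate 2 or 3. Prtn3, a neutrophil granule protease, fell in RApIC versus ATRA. In that comparison 1 rose and 2 fell without RApIC replicate 2 or under array weights. None was called without ATRA replicate 1 or 2, without RApIC replicate 1 or 3 or in a fit of the RApIC and ATRA arrays alone. Whether the sorted cells differed between groups was not tested.

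The proteins that act with SLAM receptors were read as a list of 25 genes, of which 22 were measured. In pIC versus PBS 3 of 22 were called higher and 0 lower, against 8.94% and 5.75% of all genes, and the list's median of 0.04 lay near that of all genes. The 3 were Ptpn11, the SHP-2 phosphatase that binds SLAM tails (0.54 ± 0.13), Sh3bp2, an adaptor that binds CD244 in human NK cells (0.50 ± 0.12), and Becn1, an autophagy protein that SLAMF1 recruits in macrophages (0.49 ± 0.12), at adjusted p 0.0172 to 0.0225. Each missed the threshold without pIC replicate 1, pIC replicate 2 or PBS replicate 2, and Ptpn11 also without PBS replicate 1; 5 genes rose and 1 fell without RApIC replicate 2.

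In RApIC versus ATRA 2 of 22 were called higher and 0 lower, against 3.50% and 3.71% of all genes. They were Lat, a membrane scaffold of T-cell receptor and platelet signaling (0.61 ± 0.12), and Ptpn11 (0.55 ± 0.12), at adjusted p 0.0166 and 0.0236. Both missed the threshold without ATRA replicate 1 or 2 or RApIC replicate 1 or 3 and in a fit of those 2 groups alone. In the list 4 genes rose without RApIC replicate 2 and 5 under array weights. Over all 22180 genes 3214 and 4588 were called in either direction under those 2 settings. No list member was called in ATRA versus PBS, in RApIC versus pIC or in the interaction. The adaptor genes themselves did not pass in pIC versus PBS: Sh2d1a, which encodes SAP, had 0.28 ± 0.23 and Sh2d1b1, which encodes EAT-2, 0.14 ± 0.14 (adjusted p 0.492 and 0.592). Cd2, whose product also binds CD48, had 7.63, 5.88 and 7.22 in RApIC, 6.17 and 7.64 in pIC, 5.80, 5.83 and 5.59 in ATRA and 5.79, 5.73 and 5.83 in PBS. Its difference in pIC versus PBS was 1.13 ± 0.47 (adjusted p 0.146), and like Slamf6 it was high on the arrays with high T- and NK-cell markers.

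All members lie on mouse chromosome 1 in the RefSeq annotation (GRCm38.p6). In order they are Cd244a, Ly9, Slamf7, Cd48, Slamf1, Cd84 and Slamf6 with no other measured gene between them, then 13 measured genes, and then Slamf9 and Slamf8 with 5 measured genes between them. Of 25 neighbouring genes, 2 were called higher and 0 lower in pIC versus PBS, near the 8.94% of all genes called higher, with a median of 0.11. They were Usf1, a ubiquitous transcription factor (0.54 ± 0.11), on the Cd244a side, and Tagln2, an actin-binding protein (0.44 ± 0.10), between Slamf9 and Slamf8 (adjusted p 0.0114 and 0.0144). Both missed the threshold without pIC replicate 1 or 2. The flanks of the 7-gene run, Itln1 and Vangl2, gave 0.17 ± 0.12 and 0.12 ± 0.15 and did not pass. Within the run Cd244a, Ly9 and Cd48 rose, Cd84 fell, and Slamf7 (0.50), Slamf1 (-0.11) and Slamf6 (1.43) did not pass; differences between these genes were not tested. In RApIC versus ATRA 1 of 25 neighbours was called higher, near the 3.50% of all genes, Arhgap30 (0.29 ± 0.08, adjusted p 0.0485), which missed the threshold under the replicate block, under cyclic loess scaling, in the fit of those 2 groups alone and without any single array other than RApIC replicate 2.

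**Figure D4:**
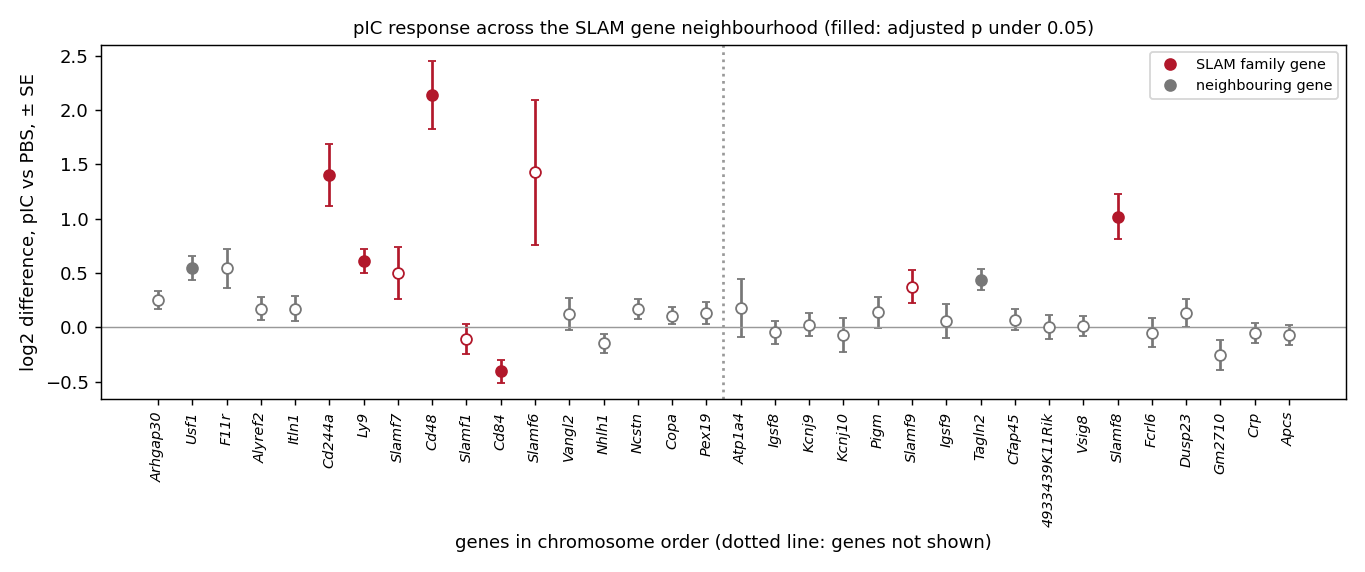
Log2 difference, pIC versus PBS, ± SE (y axis) for the SLAM family genes (red) and their measured neighbours (grey) in chromosome order (x axis, 1 step per gene, the dotted line marking genes that are not shown). Filled points passed the limma adjusted p of 0.05; Cd48 at 2.14 stands next to Slamf1 at -0.11, and of 25 neighbours Usf1 and Tagln2 are filled.

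The genes whose levels followed a called member most closely were found by Pearson r over the 11 arrays, which share their group structure, so that any gene that answers pIC in the same proportion scores high. For Cd48 they were Phf11c (0.991), Dbnl (0.988), an actin-binding adaptor, and Clca3a1 (0.987). Cd244a went with Nolc1 (0.979), a nucleolar protein, Il12rb1 (0.979), a chain of the interleukin-12 receptor, and Larp1 (0.977), an RNA-binding regulator of translation. For Ly9 they were Xpnpep3 (0.978), Nvl (0.940) and Scyl3 (0.936). Slamf8 went with Tbrg1 (0.987), Nmi (0.986), an interferon-induced partner of STAT proteins, and Tmem219 (0.983). Cd84, which fell, went with Mir340 (0.973), Crispld1 (0.972) and R3hdm2 (0.969). Members were kept out of these 5 lists of 3, and no gene was shared between the lists. Among called members r was 0.971 for Cd48 with Cd244a, 0.946 for Cd48 with Slamf8 and 0.917 for Cd244a with Slamf8. With Cd48, Cd244a and Slamf8, Ly9 gave 0.743, 0.727 and 0.603, and Cd84 gave -0.861, -0.816 and -0.937. Ly9 with Cd84 gave -0.527.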

How the data were processed

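Total RNA was labelled with biotin and hybridised, per the labels' protocols. The deposited values are log2 intensities of 41345 probe sets on 11 arrays; oligo 1.36.1, RMA and limma 3.28.20 are named without role or order, per the submitters' processing notes. No array batch is named in those sources. Probe sets with 1 symbol (23521) were used, with 1814 naming several genes and 16010 not listed; IDs of 23328 matched the reference table. The brightest probe set per gene gave 22180 genes.

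Limma 3.58.1 (R 4.3.3) fitted 4 group means (7 residual degrees of freedom, 10.72 with the prior), two-sided, with Benjamini-Hochberg adjustment over all genes; it was tested on simulated data. It compared RApIC with ATRA and with pIC, pIC and ATRA each with PBS, and tested the interaction. Members and lists were chosen with earlier results of these data known. The rule named all members, up to 5 called pathway genes per contrast, called chromosomal neighbours (5 measured genes each side) and the 3 genes most like each called member. The scaling, filter, prior, probe set and replicate choices that were varied are given in the closing section. Arrays were not paired by replicate number in the main fit. Scripts used Python 3.11.15, pandas 2.3.3 and matplotlib 3.10.9.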

Additional observations from a re-analysis of the deposited data

How the results depend on the processing

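In pIC versus PBS 5 members were called, and 5 also under array weights, with the dimmest 40% of genes left out, with the replicate block, under cyclic loess scaling, with all probe sets of a gene averaged, under a trend and robust prior and in a fit of those 2 groups. With 1 array left out the count was 1 to 6, the 6 including Slamf6. In RApIC versus ATRA 3 were called, 5 under array weights, 0 with only the groups compared, 3 or 4 under the other settings and 0 to 5 with 1 array left out. The count stayed 0 in ATRA versus PBS, RApIC versus pIC and the interaction under every setting run. The calls over all genes ran from 664 to 4204 in pIC versus PBS, against 3260, and from 305 to 4588 in RApIC versus ATRA, against 1599. The cause of these changes was not tested.

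Signs turned for values that did not pass. Array weights gave Cd48 -0.0378 in ATRA versus PBS, Ly9 -0.0091 in RApIC versus pIC and Slamf9 0.0344 in the interaction. The replicate block gave Ly9 -0.0016 in RApIC versus pIC, cyclic loess gave Slamf1 -0.0315 in RApIC versus ATRA, and the second Slamf6 probe set gave -0.11 in RApIC versus pIC. With 1 array left out, ATRA versus PBS ran from -0.10 to 0.18 for Cd48, -0.10 to 0.31 for Cd244a, -0.10 to 0.12 for Slamf7, -0.11 to 0.0283 for Slamf8 and -0.14 to 0.0447 for Slamf9. RApIC versus pIC ran from -0.39 to 0.11 for Cd244a, -0.12 to 0.14 for Ly9, -0.47 to 1.05 for Slamf6 and -0.29 to 0.0292 for Slamf9. RApIC versus ATRA ran from -0.0919 to 0.0648 for Slamf1 and -0.024 to 0.44 for Slamf7, and the interaction from -1.50 to 0.0187 for Slamf6 and -0.23 to 0.0849 for Slamf9. Alternatives for genes that are no members were chosen after seeing the data.

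Same-numbered arrays did not deviate together (r -0.109 to 0.098), and PBS replicate 1 correlated most with ATRA replicate 3 (0.092), so the numbers do not pair the arrays. With the replicate block 2835 genes were called in pIC versus PBS and 1358 in RApIC versus ATRA, and no member's call changed.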
